A study of Mus musculus with 6 samples.

Results

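Hypoxia response and glycolysis genes were examined in cultured mouse retinal ganglion cells (RGCs), the neurons whose axons form the optic nerve. The group was chosen by name and by known role, with earlier results of these data known. It holds 39 of the 43346 Ensembl mouse genes listed for each library. It covers the hypoxia factors and their oxygen sensors, the glucose transporters, the enzymes of glycolysis, the enzymes and carriers that handle pyruvate and lactate, and other genes known to respond to low oxygen. RGCs were purified by immunopanning for CD90.1 (the product of Thy1) and transduced in culture with 1 of 3 adeno-associated viruses (AAV2): a control virus encoding EGFP, a virus encoding Sox11 and EGFP, or a virus encoding Sox11 K91A and EGFP, in which alanine replaces the lysine at position 91 of this transcription factor. Each group had 2 replicates. All groups shared a medium with forskolin and the growth factors BDNF, at 50 ng/ml, and CNTF, at 10 ng/ml. Virus was added 4 h after plating, medium was changed 5.5 and 24 h later, and RNA was taken 72 h after plating. The steps on RNA sequencing name cells of embryonic day 18, the general culture protocol names pups of postnatal day 2 and the names of the deposited tables say P0, so the age is taken as embryonic day 18 with this conflict in the sources. The protocol also speaks of 3 RNA samples in duplicates. No promoter of the transgenes, oxygen level or glucose level is given in the sources used here. No label says that the replicates came from separate cultures, so p-values measure the spread between these samples, which may be technical. The RNA came from whole cultures, in which fewer cells of a type and less RNA per cell cannot be told apart.

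Cells sense oxygen through the hypoxia-inducible factors. In normal oxygen, prolyl hydroxylases (Egln1, Egln3) mark Hif1a and Epas1 for degradation, and in low oxygen the stabilized factors enter the nucleus and bind the hypoxia response element, whose core reads ACGTG or GCGTG, near target genes. Their best known targets are the glucose transporters and the enzymes of glycolysis, which turns glucose into pyruvate in the cytoplasm. Others are Ldha, which turns pyruvate into lactate, and Pdk1, which switches off the use of pyruvate by pyruvate dehydrogenase in the mitochondrion. Neurons make much of their ATP in mitochondria, and glycolysis supplies pyruvate for this and ATP in axons and at synapses. Hif1a is mainly regulated as a protein, which RNA-seq does not measure.

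The upstream sequences of 3 members that fell with Sox11 (Ldha, Pgk1 and Aldoa) and of the 3 that rose (Pfkfb3, Ldhb and Mxi1) are given to show where the hypoxia response element core occurs next to genes that moved in opposite directions. Each is the 250 bases before an annotated start, read 5′ to 3′ on the strand of the gene from RefSeq on GRCm38.p6, and capitals mark ACGTG or GCGTG on either strand. Where cores overlap on both strands the capitals read CACGTG. Only windows that were free of annotated exons, or for Pfkfb3 shared 11 bases with one of its exons, were chosen, and each printed window holds a core. An exon-free window upstream of another start of Mxi1, without a core, and one of Ldha, with a core, are not shown. Also not shown are the windows of Tpi1 and Eno2, which fell too. They share bases with annotated exons and hold no core.
Ldha, chr7:46845554-46845803 on the plus strand: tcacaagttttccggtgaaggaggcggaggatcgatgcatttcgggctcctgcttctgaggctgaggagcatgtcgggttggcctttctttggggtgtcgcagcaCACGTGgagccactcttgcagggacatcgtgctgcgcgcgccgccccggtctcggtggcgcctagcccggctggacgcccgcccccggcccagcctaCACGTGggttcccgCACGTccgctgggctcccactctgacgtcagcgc
Pgk1, chrX:106186850-106187099 on the plus strand: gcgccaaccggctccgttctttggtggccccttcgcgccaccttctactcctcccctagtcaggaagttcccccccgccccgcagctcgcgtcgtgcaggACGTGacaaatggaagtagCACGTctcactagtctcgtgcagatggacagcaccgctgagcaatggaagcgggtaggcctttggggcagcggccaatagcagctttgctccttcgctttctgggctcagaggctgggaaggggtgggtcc
Aldoa, chr7:126799255-126799504 on the minus strand: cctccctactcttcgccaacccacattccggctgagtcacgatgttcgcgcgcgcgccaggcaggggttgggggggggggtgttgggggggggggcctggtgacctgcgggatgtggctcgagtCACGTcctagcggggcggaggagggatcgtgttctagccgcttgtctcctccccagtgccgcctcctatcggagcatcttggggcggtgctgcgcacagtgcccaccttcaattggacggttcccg
Pfkfb3, chr2:11502091-11502340 on the minus strand: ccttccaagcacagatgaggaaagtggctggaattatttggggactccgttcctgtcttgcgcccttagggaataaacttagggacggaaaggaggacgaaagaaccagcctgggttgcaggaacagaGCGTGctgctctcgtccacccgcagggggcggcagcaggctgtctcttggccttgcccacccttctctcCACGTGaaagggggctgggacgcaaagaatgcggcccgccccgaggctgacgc
Ldhb, chr6:142507958-142508207 on the minus strand: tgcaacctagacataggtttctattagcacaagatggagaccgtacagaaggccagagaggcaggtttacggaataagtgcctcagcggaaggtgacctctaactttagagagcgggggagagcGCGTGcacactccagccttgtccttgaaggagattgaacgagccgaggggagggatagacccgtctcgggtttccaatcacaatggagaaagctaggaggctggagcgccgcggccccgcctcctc
Mxi1, chr19:53329163-53329412 on the plus strand: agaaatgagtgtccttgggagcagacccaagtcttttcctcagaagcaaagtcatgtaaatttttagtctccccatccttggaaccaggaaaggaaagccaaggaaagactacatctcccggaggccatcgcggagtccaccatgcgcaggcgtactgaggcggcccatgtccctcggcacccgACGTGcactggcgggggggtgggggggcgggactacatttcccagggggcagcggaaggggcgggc

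RefSeq promoter windows, from 250 bases before to 50 bases after a start, were found for 35 of the 39 members, with 1.49 windows per gene on average against 1.28 for all genes tested. ACGTG, on either strand, was found in 26 of these 35 members (74.3%), and in 28.7% of the 11452 genes tested that had a window. GCGTG, on either strand, was found in 23 members (65.7%) and in 55.2% of the genes tested. At least 1 of the 2 cores was found in 32 members (91.4%) and in 66.6% of the genes tested. Since many members are known as targets of the hypoxia factors, this describes how the group was composed. Among members with a window, ACGTG was found in 10 of 14 that fell with Sox11 (71.4%), in 2 of 3 that rose (66.7%) and in 13 of 17 that were tested and did not pass (76.5%). These shares depend on the window. In the 150 bases nearest the start ACGTG was found in 57.1% of members and 17.3% of the genes tested, and in 6 of 14 members that fell (42.9%), 2 of 3 that rose (66.7%) and 11 of 17 that did not pass (64.7%). In the full window, at least 1 of the 2 cores was found in 11 of 14 that fell (78.6%), 3 of 3 that rose and 17 of 17 that did not pass. The letters AACAAAG, a sequence that Sox factors bind, were in none of the 35 members' windows on either strand and in 4.8% of the genes tested, which says nothing of Sox11 binding elsewhere.

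Levels are given as CPM (a library's counts rescaled to a common total with TMM factors) for 1 gene across libraries and as TPM, which corrects for length, between genes. Expected counts summed to between 27521982 and 37061718 per library. The transgene was measured first, since it checks the labels. Sox11, which was also transcribed in control cultures, stood at 234 and 332 CPM in the control libraries, at 9178 and 14591 CPM in the Sox11 libraries and at 11971 and 7026 CPM in the Sox11 K91A libraries. Control cultures also received a virus, so below the transduced libraries are the 4 with Sox11 or Sox11 K91A, and both viruses are these 2. All 4 lay far above both control libraries, and the Sox11 and Sox11 K91A groups overlapped. Control replicate 2 and Sox11 replicate 2 differed from the rest along the second principal component, which held 18.2% of the variance, and had lower Xist (95.9 and 254 CPM, against 400.4 to 526 CPM) and lower Gad1, an amacrine cell marker (2.83 and 2.23 CPM, against 17.2 to 36.2 CPM). Of the other amacrine and horizontal cell markers listed, Tfap2a, Tfap2b, Slc32a1 and Chat were also lowest in these libraries. Gad2, at 71.5 CPM in control replicate 2, and Onecut1, at 33.5 CPM in Sox11 replicate 2, did not follow, nor did Lhx1. The Y-linked genes Ddx3y, Eif2s3y, Kdm5d and Uty were highest in control replicate 2 and Sox11 replicate 2, Kdm5d only narrowly in the former. Ddx3y stood there at 30.0 and 29.9 CPM, against 16.2 to 17.7 CPM in the rest.

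The defining markers of RGCs were present, with the 14 markers listed summing to 16025 and 15672 TPM in the control libraries. Markers of other cell types were lower in sum, and some defining ones were at or near 0: Gfap (astrocytes), Cx3cr1, P2ry12 and Tyrobp (microglia), Cdh5 (endothelium) and Rcvrn (photoreceptors) had at most 3 counts in any library. Others were present. The 8 amacrine and horizontal cell markers summed to 109 and 30.3 TPM in control, of which Gad2 made up 50.6 and 23.2 TPM, and to between 34.7 and 69.6 TPM in the transduced libraries. The RGC markers summed to 13316 and 10651 TPM in the Sox11 libraries and to 11978 and 13647 TPM in the Sox11 K91A libraries. Of the 14, 4 fell with Sox11 (28.6%, where 10.2% of all genes tested did): Thy1, Nefl, Nefm and Slc17a6. With Sox11 K91A, 2 fell (14.3%, where 4.81% of all genes did), Nefm and Slc17a6. None rose with either virus. The 11 astrocyte and Müller glia markers summed to between 280.4 and 291 TPM in the control libraries and to between 500 and 531 TPM in the transduced libraries, most of it from Glul and Vim, which in control stood at 80.6 and 68.6 TPM and at 190.04 and 207 TPM. Of the 9 that were tested, Glul rose with both viruses, S100b fell with Sox11, and Slc1a3, Rlbp1 and Sox9 had negative fold changes with both without passing. Aldh1l1, Pax2 and Vim had positive fold changes with both, also without passing. Apoe was negative with Sox11 and positive with Sox11 K91A, without passing. The part of these marker changes in the results on the members was not tested.

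Of the 39 members, 38 had counts high enough to be tested. The exception was Car9, a carbonic anhydrase that is a classical hypoxia target, with between 0 and 9 counts per library. With Sox11 against control, 18 of the 38 passed, where 20.1% of the 15747 genes tested did. Of these, 15 fell (39.5% of the 38), where 10.2% of all genes did, and 3 rose (7.89%), where 9.96% of all genes did. Members and gene lists were chosen with earlier results of these data known, so here and below such shares are a description. Passing means an FDR under 0.05 in limma-voom and a fold change above 1.2, two-sided. The members that fell were Slc2a1, Hk1, Gpi1, Aldoa, Aldoc, Tpi1, Gapdh, Pgk1, Pgam1, Eno1, Eno2, Ldha, Ndrg1, Higd1a and P4ha2, and those that rose were Pfkfb3, Ldhb and Mxi1. The median log2 fold change of the 38 was -0.57, beside 0.01 for all genes tested, and 29 of the 38 were below 0. The Sox11 libraries lay entirely below control in 24 of the 38, where they did so in 30.6% of all genes tested. They lay entirely above control in 5 of the 38, where they did so in 30.9% of all genes, and the groups overlapped in 9.

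With Sox11 K91A against control, 8 of the 38 passed, where 10.6% of the genes tested did. Of these, 5 fell (13.2%), where 4.81% of all genes did: Slc2a1, Aldoa, Aldoc, Tpi1 and Eno2. Again Pfkfb3, Ldhb and Mxi1 rose (7.89%), where 5.81% of all genes did. The median log2 fold change was -0.51, beside 0.02 for all genes tested, and 31 of the 38 were below 0. The Sox11 K91A libraries lay entirely below control in 25 of the 38 and entirely above it in 5. Of the 15747 genes tested, 4828 lay below and 4915 above in this way. Both comparisons use the same 2 control libraries, so they are not independent of each other. The counts rest on few libraries. Without Sox11 replicate 2, no member and 0 of 16206 genes passed with Sox11, and without control replicate 2, 2 members fell (Slc2a1 and Aldoc) and 4 rose (Pfkfb3, Ldhb, Mxi1 and Bnip3l), where 6.1% of all genes fell and 4.95% rose. Leaving out either Sox11 K91A library left 10 that fell with Sox11. With Sox11 K91A, no member passed without control replicate 2 or without Sox11 K91A replicate 1, and 1 passed without Sox11 K91A replicate 2, Pfkfb3, which rose. Leaving out either Sox11 library, 9 fell with Sox11 K91A. No member that passed changed sign in any of the alternative analyses run.

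**Figure D1:**
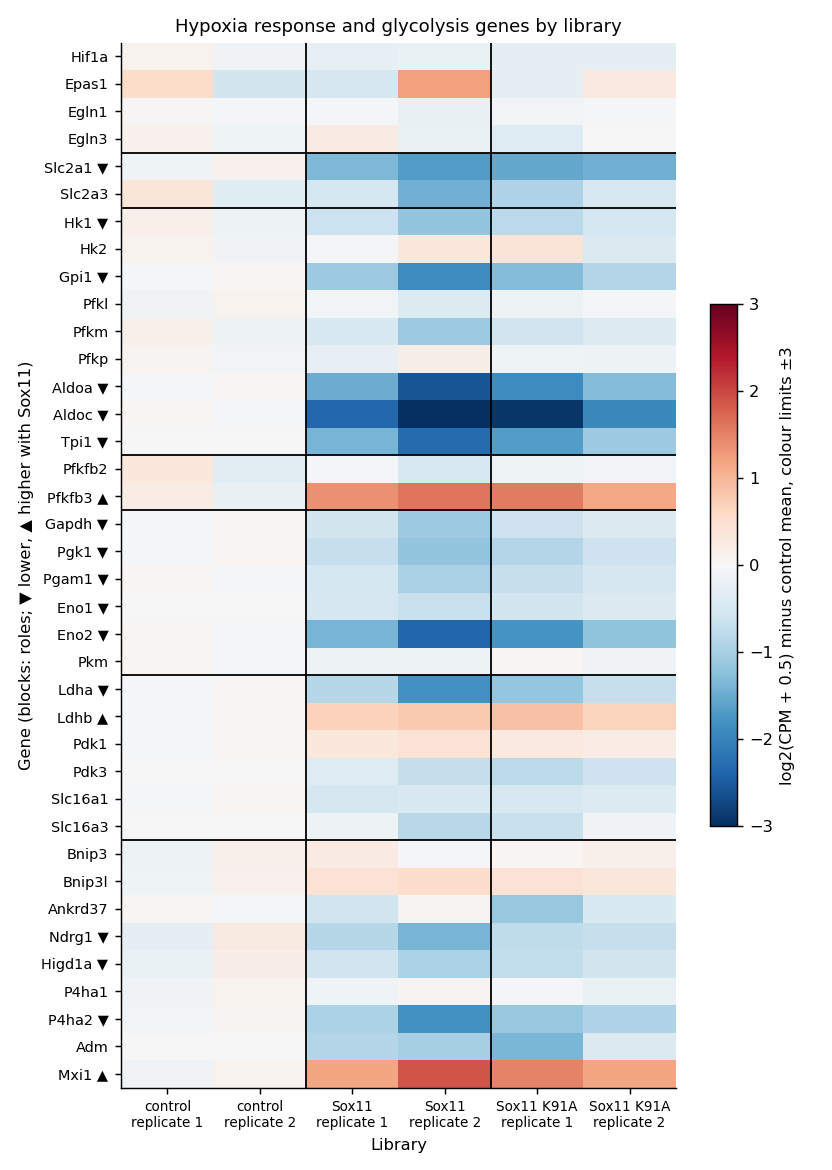
Level of the 38 tested members (rows, in blocks by role) in each of the 6 libraries (columns), as log2(CPM + 0.5) minus the mean of the 2 control libraries; blue is lower, red is higher, colours stop at ±3, and ▼ or ▲ marks the 15 members that fell and the 3 that rose with Sox11. Most rows from Slc2a1 to Ldha are blue in all 4 transduced libraries, deepest in Sox11 replicate 2, while Pfkfb3, Ldhb and Mxi1 are red in all 4.

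The hypoxia factors and oxygen sensors did not pass in any comparison. Hif1a, the main factor, stood at 222 and 193 CPM in control, 174 and 180.3 CPM with Sox11 and 168 and 170.5 CPM with Sox11 K91A. All 4 transduced libraries were below both control libraries, by less than the test could separate (adjusted p = 0.27 and 0.20). In TPM, Hif1a made up between 98.7% and 99.8% of the summed Hif1a and Epas1, and Epas1, which is typical of endothelium, stayed at or below 2.75 CPM. Egln1, the main sensor, ranged from 57.6 to 68.3 CPM over the 6 libraries and Egln3 from 0.993 to 1.82 CPM.

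Of the glucose transporters, Slc2a1 (GLUT1) fell with both viruses. It stood at 38.0 and 45.3 CPM in control, 16.1 and 12.7 CPM with Sox11 and 14.1 and 14.9 CPM with Sox11 K91A. The transduced libraries were close to each other and all lay below the controls. The log2 fold changes were -1.55 ± 0.19 (SE, adjusted p = 0.011) and -1.52 ± 0.19 (adjusted p = 0.014). GLUT1 is also a gene of endothelium, whose 7 markers summed to 28.3 and 39.5 TPM in control and to between 5.62 and 13.7 TPM in the transduced libraries. Most of this sum was Egfl7, at 26.4 and 37.9 TPM in control, which fell with both viruses. The rest of the list did not all move together. Pecam1 and Tek were above control in all 4 transduced libraries and rose with Sox11 K91A. Kdr had positive fold changes with both viruses without passing. Tie1, too rare to be tested, had 2 and 16 counts in control and 0, 0, 1 and 0 in the transduced libraries. Cldn5, also not tested, ranged from 0 to 12 counts, and Cdh5 was at or near 0. The part of these markers in the result was not tested. Slc2a3 (GLUT3), the main glucose transporter of neurons, was the more abundant in TPM, at 79.7% to 91.5% of the 2 together. Its control libraries differed widely, at 456 and 273 CPM, and the values of 243 and 129.7 CPM with Sox11 and 187 and 252 CPM with Sox11 K91A lay below both without passing the test (adjusted p = 0.090 and 0.24).

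The 15 glycolytic enzymes held most of the members that fell. With Sox11, 10 of them fell (66.7%, where 10.2% of all genes tested did) and none rose. With Sox11 K91A, 4 fell (26.7%, where 4.81% of all genes did) and none rose. Their TPM summed to 10374 and 9719 in the control libraries, 6353 and 4725 in the Sox11 libraries, and 5834 and 6665 in the Sox11 K91A libraries. The mean of the Sox11 libraries was 0.551 times that of control and the mean of the Sox11 K91A libraries 0.622 times. The RGC markers, by the same measure, stood at 0.756 and 0.808 times control.

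In the upper part of the pathway, which spends ATP to split glucose into triose phosphates, the enzymes that fell were Hk1, Gpi1, Aldoa, Aldoc and Tpi1. Hk1, the hexokinase that traps glucose in the cell, stood at 418 and 338 CPM in control, 241 and 165 CPM with Sox11 and 216 and 259.8 CPM with Sox11 K91A. It fell by 0.91 ± 0.22 on the log2 scale with Sox11 (adjusted p = 0.034), and its change with Sox11 K91A, -0.67 ± 0.22, did not pass (adjusted p = 0.099). Gpi1, which converts glucose 6-phosphate to fructose 6-phosphate, stood at 773 and 826 CPM in control, 376 and 215 CPM with Sox11 and 325 and 431 CPM with Sox11 K91A. No transduced library reached the lower control, and the log2 fold changes were -1.49 ± 0.28 (adjusted p = 0.019) and -1.09 ± 0.28 (adjusted p = 0.053), of which the second lay just outside the threshold.

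Aldoa, the main aldolase, which cleaves fructose 1,6-bisphosphate, stood at 1045 and 1130.5 CPM in control, 384 and 182 CPM with Sox11 and 294 and 439 CPM with Sox11 K91A. It fell 4.09-fold with Sox11 (log2 fold change -2.03 ± 0.36, adjusted p = 0.017) and 3.02-fold with Sox11 K91A (-1.60 ± 0.36, adjusted p = 0.040). Aldoc, the aldolase of astrocytes and some neurons, had the most negative fold change of the members, at 8.3 and 8.02 CPM in control, 1.2 and 0.241 CPM with Sox11 and 0.652 and 1.75 CPM with Sox11 K91A. Its log2 fold changes were -3.94 ± 0.70 (adjusted p = 0.017) and -2.94 ± 0.57 (adjusted p = 0.029), at a level under 1% of the summed aldolase TPM in every library. Tpi1, which interconverts the triose phosphates, stood at 399 and 408 CPM in control, 154 and 80.5 CPM with Sox11 and 127 and 188 CPM with Sox11 K91A. It fell with both viruses, by 1.86 ± 0.33 (adjusted p = 0.016) and 1.39 ± 0.33 (adjusted p = 0.043) on the log2 scale.

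The phosphofructokinases, which catalyse the committed step, did not pass. Pfkp, the most abundant of the 3 in TPM, ranged from 325 to 437 CPM with overlap between control and Sox11. Pfkl ranged from 94.1 to 135 CPM, also with overlap. Pfkm, the muscle form, stood at 194 and 158 CPM in control, 127 and 81.8 CPM with Sox11 and 115 and 131 CPM with Sox11 K91A, below both controls in all 4 transduced libraries (adjusted p = 0.057 and 0.19). Hk2, the inducible hexokinase, was near the limit of detection at 0.652 to 1.52 CPM.

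The regulators of this step moved apart. Pfkfb3, whose product makes fructose 2,6-bisphosphate, the strongest activator of phosphofructokinase, rose with both viruses. It stood at 41.6 and 30.7 CPM in control, 93.6 and 109 CPM with Sox11 and 106 and 79.9 CPM with Sox11 K91A. The groups did not overlap, and the log2 fold changes were 1.51 ± 0.21 (adjusted p = 0.012) and 1.37 ± 0.21 (adjusted p = 0.020). Pfkfb2, the heart form, stood at 47.6 and 30.6 CPM in control, 36.9 and 27.2 CPM with Sox11 and 34.7 and 36.2 CPM with Sox11 K91A, with overlap between all groups.

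**Figure D2:**
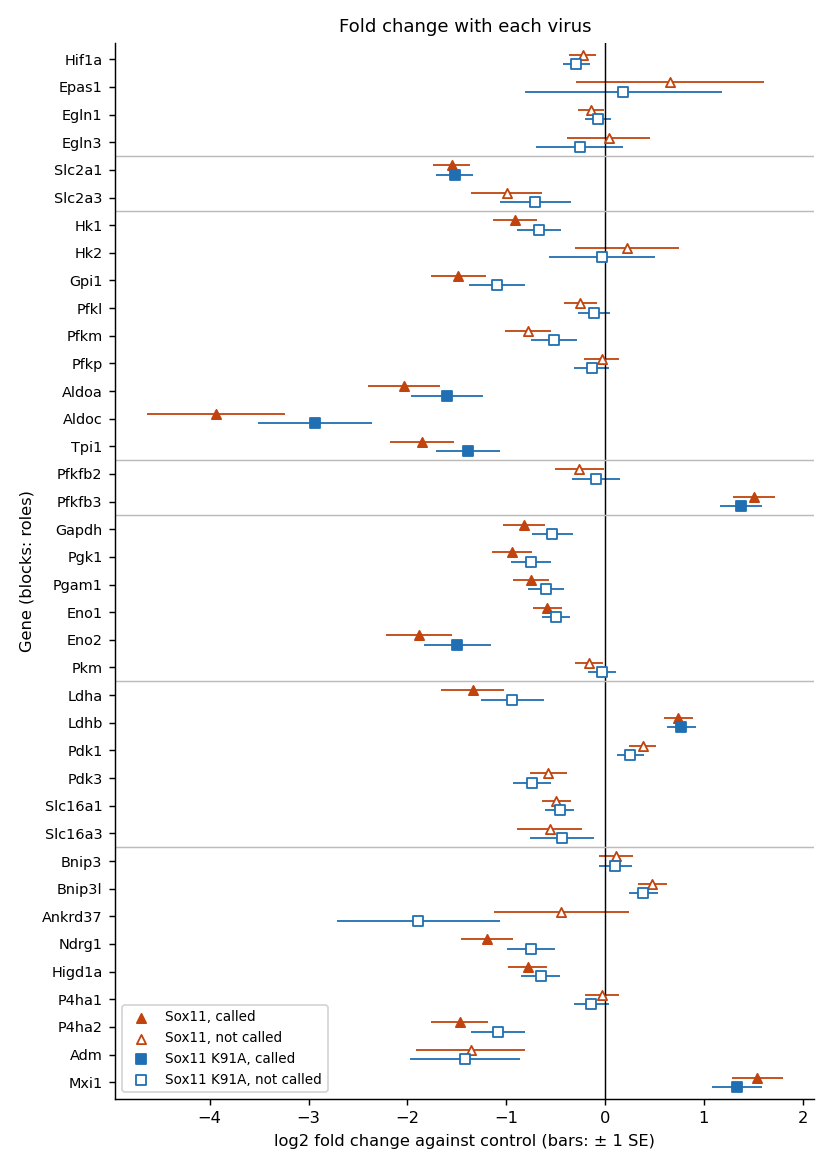
Log2 fold change against control (x axis, bars ± 1 SE from limma-voom) of the 38 tested members (y axis, in blocks by role) with Sox11 (triangles) and Sox11 K91A (squares); filled symbols passed the test. All glycolytic enzymes but Hk2, which lies right of 0 with Sox11, and Slc2a1 lie left of 0 with both viruses, with Aldoc at -3.94 and -2.94, and Pfkfb3, Ldhb and Mxi1 lie right of 0.

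In the lower part of the pathway, which yields ATP and NADH, 5 of the 6 enzymes fell with Sox11, where 10.2% of all genes did. Gapdh, the most abundant member in TPM, stood at 1744 and 1803 CPM in control, 1216 and 828 CPM with Sox11 and 1145 and 1309 CPM with Sox11 K91A. It is widely used as a reference gene, and here it fell 1.76-fold with Sox11 (log2 fold change -0.82 ± 0.21, adjusted p = 0.037), while its change with Sox11 K91A, -0.53 ± 0.21, did not pass (adjusted p = 0.14). Its 72 near-identical copies in the genome held counts equal to 2.98% of its own. Pgk1, which makes the first ATP of the pathway, stood at 413 and 446 CPM in control, 266 and 188 CPM with Sox11 and 234 and 278 CPM with Sox11 K91A, with log2 fold changes of -0.94 ± 0.20 (adjusted p = 0.025) and -0.75 ± 0.20 (adjusted p = 0.059). Pgam1, a mutase, stood at 448 and 427 CPM in control, 301 and 223 CPM with Sox11 and 271 and 307 CPM with Sox11 K91A, with log2 fold changes of -0.75 ± 0.18 (adjusted p = 0.032) and -0.60 ± 0.18 (adjusted p = 0.078). For all 3 enzymes every transduced library lay below both controls.

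The enolases, which make phosphoenolpyruvate, fell unequally. Eno2, the neuronal form, stood at 712 and 670.0 CPM in control, 262 and 133 CPM with Sox11 and 203 and 296 CPM with Sox11 K91A. It fell by 1.88 ± 0.33 (adjusted p = 0.017) and 1.49 ± 0.34 (adjusted p = 0.040) on the log2 scale. Eno1, the ubiquitous form, stood at 985 and 1007 CPM in control, 705 and 627 CPM with Sox11 and 675 and 736 CPM with Sox11 K91A, and fell by 0.58 ± 0.14 with Sox11 (adjusted p = 0.034), with -0.50 ± 0.14 for Sox11 K91A (adjusted p = 0.070). In contrast to the others, Pkm, the pyruvate kinase that ends the pathway, stood at 876 and 837 CPM in control, 766 and 768 CPM with Sox11 and 894 and 789.8 CPM with Sox11 K91A, and did not pass (adjusted p = 0.45 and 0.92).

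Beyond pyruvate, the lactate dehydrogenase subunits moved in opposite directions. Ldha, whose subunit favours making lactate, stood at 388 and 412 CPM in control, 220.0 and 113 CPM with Sox11 and 177 and 246 CPM with Sox11 K91A. It fell with Sox11 (log2 fold change -1.34 ± 0.32, adjusted p = 0.032), and the change with Sox11 K91A, -0.94 ± 0.32, did not pass (adjusted p = 0.10). Ldhb, whose subunit favours turning lactate into pyruvate, stood at 219 and 235 CPM in control, 369 and 391 CPM with Sox11 and 418 and 359 CPM with Sox11 K91A. It rose by 0.74 ± 0.15 (adjusted p = 0.020) and 0.77 ± 0.15 (adjusted p = 0.027) on the log2 scale, and its replicates were close to each other in each group. The 2 genes together summed to between 906.8 and 1020.1 TPM in all 6 libraries.

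The other members around pyruvate and lactate did not pass. Pdk1, a kinase that switches off pyruvate dehydrogenase, stood at 44.7 and 48.3 CPM in control, 57.8 and 63.3 CPM with Sox11 and 56.9 and 54.0 CPM with Sox11 K91A (adjusted p = 0.086 and 0.25). Pdk3, a kinase of the same family, lay on the other side of control, at 19.2 and 18.8 CPM in control, 14.4 and 11.5 CPM with Sox11 and 10.7 and 12.2 CPM with Sox11 K91A (adjusted p = 0.070 and 0.055). For both genes the control and transduced libraries did not overlap. Slc16a1 (MCT1), a carrier of lactate and pyruvate, ranged from 26.7 to 28.6 CPM in control and from 19.5 to 20.5 CPM in the transduced libraries (adjusted p = 0.057 and 0.090). Slc16a3 (MCT4), the carrier known for lactate export, ranged from 3.95 to 7.51 CPM, also with all transduced libraries below both controls.

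**Figure D3:**
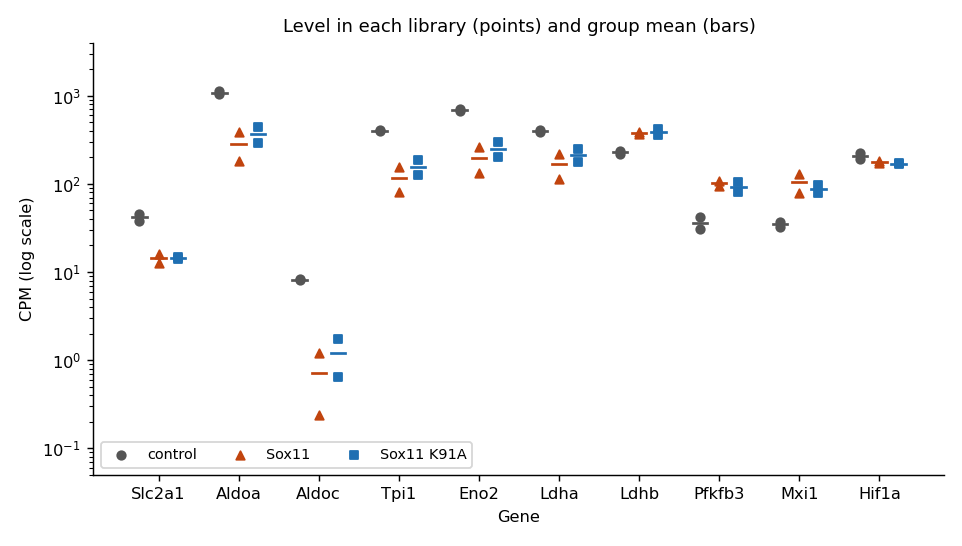
CPM (y axis, log scale) in each library (points) with the mean of each group (bars) for Slc2a1, 5 glycolytic and lactate genes that fell with Sox11, the 3 members that rose, and Hif1a. Ldhb, Pfkfb3 and Mxi1 lie above control in all 4 transduced libraries, and the genes that fell lie below control in all 4, with Sox11 replicate 2 lowest.

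Among the other hypoxia targets, 3 of the 9 tested fell with Sox11 (33.3%) and 1 rose (11.1%). Of all genes tested, 10.2% fell and 9.96% rose. With Sox11 K91A 1 rose (11.1%, where 5.81% of all genes did) and none fell. Mxi1, a Max-binding repressor that opposes Myc, stood at 32.0 and 37.2 CPM in control, 79.2 and 129 CPM with Sox11 and 97.3 and 78.5 CPM with Sox11 K91A. It rose with both viruses, by 1.54 ± 0.25 (adjusted p = 0.015) and 1.33 ± 0.25 (adjusted p = 0.028) on the log2 scale. P4ha2, a subunit of the collagen prolyl hydroxylase, stood at 19 and 21 CPM in control, 10.2 and 5.34 CPM with Sox11 and 8.78 and 10.2 CPM with Sox11 K91A. It fell with Sox11 (log2 fold change -1.47 ± 0.29, adjusted p = 0.021), and with Sox11 K91A the change of -1.08 ± 0.27 lay just outside the threshold (adjusted p = 0.051).

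Ndrg1, a stress-responsive gene, stood at 25.5 and 36.7 CPM in control, 16.6 and 11.3 CPM with Sox11 and 18 and 18.8 CPM with Sox11 K91A, and fell by 1.19 ± 0.26 with Sox11 (adjusted p = 0.026). Higd1a, a mitochondrial protein of the respiratory chain, stood at 72.1 and 94.9 CPM in control, 54.8 and 42.3 CPM with Sox11 and 49.0 and 56.7 CPM with Sox11 K91A, and fell by 0.78 ± 0.20 with Sox11 (adjusted p = 0.037). With Sox11 K91A neither passed (adjusted p = 0.092 and 0.079), though all transduced libraries were below control. Bnip3l, a mitophagy receptor, stood at 63.4 and 76.4 CPM in control, 93.7 and 100.2 CPM with Sox11 and 93.7 and 88.2 CPM with Sox11 K91A, above control in all 4 libraries without passing (adjusted p = 0.061 and 0.13). Its relative Bnip3 stood at 55.5 and 68.8 CPM in control, 73.7 and 60.5 CPM with Sox11 and 64.3 and 68.9 CPM with Sox11 K91A, with overlap between groups. P4ha1, the other collagen hydroxylase subunit, ranged from 19.6 to 24.4 CPM, also with overlap. Adm, a vasodilator peptide, and Ankrd37 were rare, at 0.372 to 1.79 CPM and 0.0931 to 0.875 CPM.

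Within families, the share of each gene in the summed TPM was compared per library. With 2 libraries against 2, the smallest two-sided p an exact permutation test can give is 0.333, so the shares are a description. Ldha made up 58.5% and 58.2% of Ldha and Ldhb in control, 32.0% and 18.4% with Sox11 and 25.0% and 35.1% with Sox11 K91A. Thus Ldhb was the less abundant subunit in both control libraries and the more abundant in all 4 transduced libraries. Eno2 made up 39% and 35.9% of the enolases in control, 25.4% and 15.4% with Sox11 and 21% and 25.9% with Sox11 K91A. Pfkfb3 rose from 40.2% and 41.5% of Pfkfb2 and Pfkfb3 in control to between 62.9% and 72.5% in the transduced libraries, so that it passed Pfkfb2 in all of them. The share of Pdk1 in Pdk1 and Pdk3 was 48.0% and 49.4% in control and 61.1% to 68.3% in the transduced libraries. P4ha1 went from 41.5% and 45.3% of the P4ha pair to between 55.6% and 68.6%, and Bnip3 from 57.6% and 58.3% of Bnip3 and Bnip3l to between 46.2% and 50.7%. Hk1 held above 99% of the hexokinase TPM in every library. The shares of Slc16a1, Egln1 and Pfkm in their families overlapped between control and transduced libraries.

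**Figure D4:**
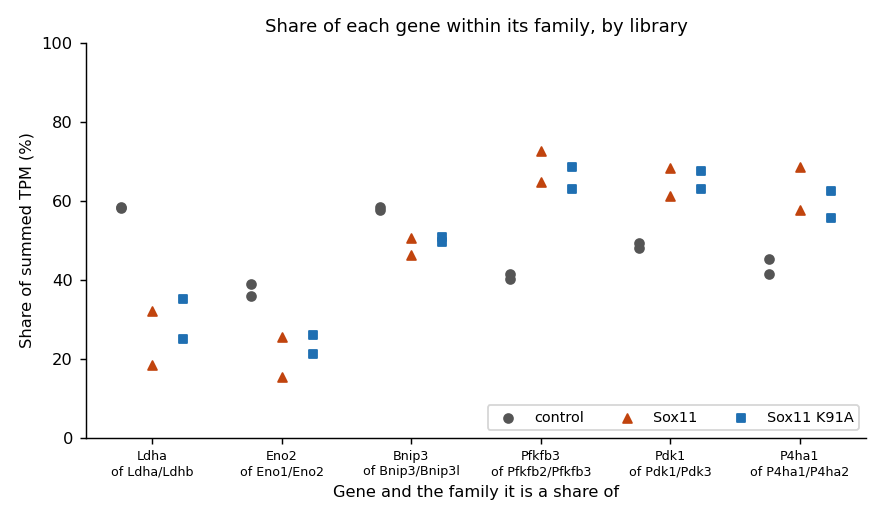
Share of summed TPM (y axis, %) taken by each gene within the family named under it, in each library (points: control circles, Sox11 triangles, Sox11 K91A squares). In the 6 families shown, chosen from a longer list, the 2 control points lie apart from the 4 transduced points. Ldha, Eno2 and Bnip3 are lower and Pfkfb3, Pdk1 and P4ha1 higher with Sox11 and Sox11 K91A than with the control virus. In Hk1/Hk2, Slc16a1/Slc16a3, Egln1/Egln3 and Hif1a/Epas1, not shown, control and transduced libraries overlapped.

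By Sox11 CPM, the transduced libraries ran from Sox11 K91A replicate 2 through Sox11 replicate 1 and Sox11 K91A replicate 1 to Sox11 replicate 2. The summed TPM of the 15 glycolytic enzymes ran in the opposite order, at 6665, 6353, 5834 and 4725. Gene by gene, 12 of the 15 enzymes had exactly this opposite order, all but Hk2, Pfkp and Pkm. The same held for 13 of the 15 members that fell with Sox11 (86.7%), for 51.3% of all genes that fell with Sox11 and for 13.9% of all genes tested. The first principal component, with 62.9% of the variance, put the 4 libraries in the same order, so the order is that of the libraries as a whole. It was noticed in these values, mixes both viruses and has 4 libraries, and no test was made of it.

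**Figure D5:**
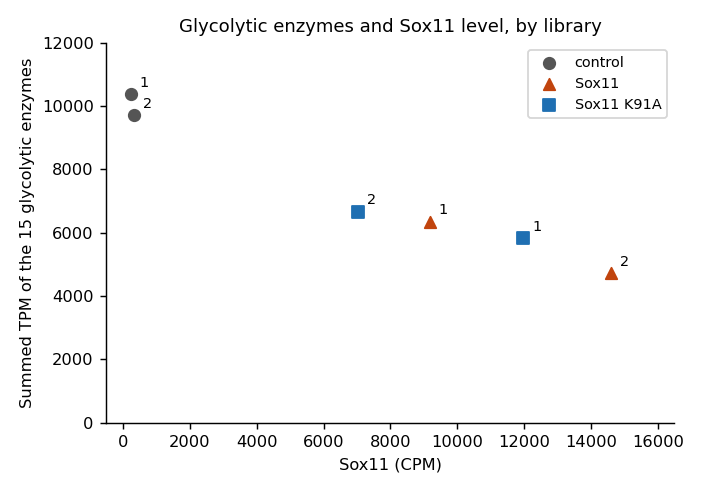
Summed TPM of the 15 glycolytic enzymes (y axis) against Sox11 CPM (x axis) in each library, labelled by replicate number. The control libraries lie at 10374 and 9719 TPM, and the 4 transduced libraries go down from 6665 to 4725 TPM as Sox11 goes up from 7026 to 14591 CPM.

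Sox11 K91A was compared directly with Sox11 to ask whether the mutation changed any of these genes. No member passed in limma-voom, where 0 of all genes tested passed (0% of 15747), and 108 of all genes but no member had an unadjusted p under 0.05. DESeq2 found 2 genes in all and no member, and edgeR found none. All 38 intervals of the difference included 0, the sign of the difference turned in at least 1 alternative analysis for 28 of the 38 members, and the width of the intervals sets what could be seen. The 95% interval of the log2 difference, Sox11 K91A minus Sox11, ran from -0.32 to 0.38 for Ldhb, from -0.47 to 0.53 for Slc2a1 and from -0.39 to 0.26 for Hif1a. For the glycolytic genes with the greatest spread between replicates it was wider, from -0.40 to 1.27 for Aldoa, from -0.29 to 1.23 for Tpi1 and from -0.34 to 1.15 for Ldha. Thus a difference larger than these bounds was not seen, while a smaller one could not be told from the spread. That 10 glycolytic enzymes passed with Sox11 and 4 with Sox11 K91A was therefore not shown to be a difference between the viruses.

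The pathways on either side of glycolysis were read from lists of their other genes. Among other genes of the hypoxia factor pathway, 7 of 37 tested rose with Sox11 (18.9%) and 8 fell (21.6%). Of all genes tested, 9.96% rose and 10.2% fell. With Sox11 K91A, 7 rose (18.9%) and 4 fell (10.8%), where 5.81% and 4.81% of all genes did. The summed TPM of this list was higher with both viruses. It was 1300 and 1211 in control, 1666 and 1913 with Sox11 and 1671 and 1564 with Sox11 K91A. The largest fold changes with Sox11 among those that passed were falls. They were those of Bhlhe40 and Bhlhe41, repressors of transcription that low oxygen induces, and Stc1, a secreted glycoprotein. Bhlhe40 stood at 39.4 and 27.7 CPM in control, 7.13 and 2.62 CPM with Sox11 and 5.77 and 9.12 CPM with Sox11 K91A, and fell by 2.96 ± 0.45 (adjusted p = 0.013) and 2.18 ± 0.40 (adjusted p = 0.026) on the log2 scale. Bhlhe41 fell by 2.10 ± 0.32 (adjusted p = 0.013) and 1.94 ± 0.31 (adjusted p = 0.020), and Stc1 fell by 2.47 ± 0.65 with Sox11 (adjusted p = 0.041). Rbpj, the DNA-binding partner of Notch, rose with Sox11 K91A by 1.47 ± 0.21 (adjusted p = 0.018), from 35.1 and 32.2 CPM to 103 and 84.3 CPM.

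Other glycolysis and lactate genes gave 3 falls of 18 tested with Sox11 (16.7%) and no rise, where 10.2% of all genes fell. With Sox11 K91A they gave 2 falls (11.1%), where 4.81% of all genes fell. Ldhd, a dehydrogenase of D-lactate, stood at 7.76 and 8.67 CPM in control, 2.40 and 0.965 CPM with Sox11 and 2.67 and 2.57 CPM with Sox11 K91A (adjusted p = 0.015 and 0.036). Pgp, a phosphatase, fell by 1.02 ± 0.18 (adjusted p = 0.017) and 0.98 ± 0.18 (adjusted p = 0.027), and Pgm1, which links glycogen to glycolysis, fell by 0.71 ± 0.17 with Sox11 (adjusted p = 0.034). Downstream, 9 of 16 genes of the TCA cycle fell with Sox11 (56.25%) and 2 with Sox11 K91A (12.5%), beside the same 10.2% and 4.81% of all genes. None rose, and all 16 fold changes were negative with both viruses. Sdhd, a subunit of succinate dehydrogenase, and Idh3a, a subunit of isocitrate dehydrogenase, fell with both, by 0.88 ± 0.15 (adjusted p = 0.016) and 0.90 ± 0.17 (adjusted p = 0.018) with Sox11. Ogdh, of the oxoglutarate dehydrogenase complex, fell by 1.06 ± 0.28 with Sox11 (adjusted p = 0.039). The TCA cycle list summed to 3234 and 2873 TPM in control and to between 2021 and 2372 TPM in the transduced libraries.

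Of 12 genes of pyruvate dehydrogenase and the mitochondrial pyruvate carriers, 1 fell with Sox11 (8.33%), no more than the 10.2% of all genes that did. This was Mpc1, by 0.79 ± 0.22 on the log2 scale (adjusted p = 0.045), and none passed with Sox11 K91A. In the pentose phosphate pathway, which branches from glucose 6-phosphate and makes NADPH, 2 of 7 fell with Sox11 (28.6%). With Sox11 K91A 1 fell (14.3%, where 4.81% of all genes did), and none rose with either virus. Tkt, the transketolase that returns sugars to glycolysis, fell with both viruses, by 0.78 ± 0.16 (adjusted p = 0.022) and 0.66 ± 0.16 (adjusted p = 0.045). Pgls, which acts in the branch that makes NADPH, fell by 0.66 ± 0.18 with Sox11 (adjusted p = 0.046).

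The members with counts given next were each tested in 21 alternative analyses and differed in how often they passed. Counts for Hk1, Aldoc, Pgk1, Ldha, Ndrg1 and Higd1a, which also fell with Sox11, are not listed. With Sox11, Slc2a1, Pfkfb3 and Mxi1 passed in 20, Aldoa and Eno2 in 19, and Gpi1, Tpi1, Ldhb and P4ha2 in 18. Gapdh and Pgam1 passed in 11 and Eno1 in 10. With Sox11 K91A, Pfkfb3 passed in 19, Slc2a1 and Ldhb in 18, Mxi1 in 17, Aldoa and Eno2 in 14 and Tpi1 in 13. Gpi1 and P4ha2, which did not pass with Sox11 K91A here, passed in 9 and 10 of them.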

How the data were processed

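RNA-seq libraries of cultured RGCs with a control, a Sox11 or a Sox11 K91A AAV (2 replicates each) were grouped by their labels. The authors aligned reads to mm10 with STAR and counted them with RSEM (per the labels and the methods, versions not given in the sources used here), and deposited 1 table per library with expected counts per gene (unnormalized), TPM values, scaled by the authors to the same total in each library, an effective length and a posterior SD of the count. The annotation, the use of strand and any pooling of animals are not given in the sources used here. Symbols were taken from GENCODE M21, which named 42462 of 43346 Ensembl genes. The deposited tables also listed 26248 numbered entries with no gene name and 96 spike-in entries, which held 1 count in all and were left out.

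Expected counts were rounded, filtered with filterByExpr over the 3 groups, scaled with TMM factors (0.985 to 1.04) and tested with limma-voom (limma 3.58.1, edgeR 4.0.16, R 4.3.3) over all 6 libraries in a single fit without covariates, two-sided, with Benjamini-Hochberg adjustment over 15747 genes. A gene was called at an FDR under 0.05 and a fold change above 1.2, and SE are those of the fit. The fit was tested on simulated counts. CPM used TMM-scaled sizes. The depth, 27521982 to 37061718 counts per library, and 2 replicates limit the precision. Near-identical copies were searched with BLAST+ 2.17.0, at 95% identity over 90% of the copy's transcript. Without known strand use, reads of genes that overlap on opposite strands, such as Aldoa and Fam57b (25 bases) or Ankrd37 and Ufsp2 (57 bases), could not be told apart.

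The members and gene lists were chosen with earlier results of these data known. All members are named, and of each other list up to 3 genes per comparison with the largest fold change past the threshold, at least 1 CPM on average and no overlap between groups. The alternatives were edgeR, DESeq2 (1.42.0), sample quality weights, limma-trend on log2(TPM + 1) or log2(TPM + 0.1), DESeq2 size factors, no TMM scaling, all genes with at least 1 count, a minimum of 10 counts in each library, only the groups compared, a replicate block, a term for the libraries low in Xist, near-identical copies added, and leaving out each replicate. A crossed block and the 4 libraries without those low in Xist were added after seeing the data. Paralog shares used TPM or, as an alternative, counts per effective length, and promoter motifs were also counted in the 150 bases nearest the start. Plots were made with Python 3.11.15 and matplotlib 3.10.9.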

Additional observations from a re-analysis of the deposited data

How the results depend on the processing

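No member that passed changed sign under any alternative run. Of all 38, 9 changed sign in at least 1 alternative with Sox11, 6 with Sox11 K91A and 28 between the viruses, all of them members that did not pass. Pkm with Sox11 K91A turned positive with limma-trend (0.026 with either pseudocount) and ranged from -0.11 to 0.057 when 1 replicate was left out. Between Sox11 K91A and Sox11, the log2 difference then ranged from -0.15 to 0.21 for Slc2a1, from -0.098 to 0.99 for Aldoa, from -0.075 to 0.90 for Ldha and from -0.080 to 0.14 for Ldhb. In the 4 libraries without those low in Xist it was -0.15 for Slc2a1, -0.098 for Aldoa and -0.076 for Ldha, and with limma-trend it was -0.011 for Ldhb. The median difference of the members went from 0.11 to -0.05 without Sox11 replicate 2, with no member past the threshold. No member passed between Sox11 K91A and Sox11 under any of them. The 15 members that fell with Sox11 became 6 with sample quality weights, 9 in a fit of only the 2 groups compared and 8 in the 4 libraries without those low in Xist, and ranged from 0 to 16 when 1 replicate was left out. The 3 that rose ranged from 0 to 4. Their median log2 fold change, -0.57, was -0.40 with limma-trend on log2(TPM + 1) and ranged from -0.74 to -0.50 when 1 replicate was left out. The 5 members that fell with Sox11 K91A were the less stable count. They became 3 with edgeR, 16 with DESeq2, 3 with quality weights, 2 and 1 with limma-trend on log2(TPM + 1) and log2(TPM + 0.1), 9 in a fit of the 2 groups, 14 with a term for the libraries low in Xist and 18 in the 4 libraries without them. Without 1 replicate they ranged from 0 to 9, and the 3 that rose from 0 to 3. The cause of these changes in count was not tested. Leaving out a library or fitting fewer groups leaves fewer degrees of freedom, and such fits gave both lower and higher counts. Over all genes, the 1568 that rose and 1603 that fell with Sox11 became 527 and 452 with quality weights, 1287 and 820 with limma-trend on log2(TPM + 0.1), 797 and 801 in a fit of the 2 groups and 971 and 1123 in the 4 libraries. The 915 and 757 with Sox11 K91A became 1551 and 1593 with DESeq2, 553 and 383 or 579 and 317 with limma-trend on log2(TPM + 1) or log2(TPM + 0.1), 1326 and 1568 with the low Xist term and 1816 and 2292 in the 4 libraries. When replicates were left out, 0 of 16206 passed with Sox11 without Sox11 replicate 2, 0 of 16205 passed with Sox11 K91A without control replicate 2, and 18 rose and 1 fell without Sox11 K91A replicate 1, as 223 and 96 did without Sox11 K91A replicate 2.

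The replicate numbers share only a number, and the correlation of same-numbered deviations was 0.259 for Sox11 and control, -0.0448 for Sox11 K91A and control and -0.282 for Sox11 K91A and Sox11. With the replicate block, 14 members fell and 3 rose with Sox11, without Eno1, where 8.74% of all genes fell and 8.27% rose. With Sox11 K91A 5 members fell and 3 rose, where 4.17% of all genes fell and 4.74% rose, and no member passed between the viruses. With the pairs crossed, 17 members fell and 4 rose with Sox11, where 13.7% of all genes fell and 12.2% rose. In the same fit 13 members fell and 3 rose with Sox11 K91A, where 9.29% of all genes fell and 8.19% rose. Mean paralog shares moved by less than their SD with counts per effective length. In the 150 bases nearest the start, ACGTG was found in 6 rather than 10 of the members that fell and in 1978 rather than 3286 of all genes tested, AACAAAG in 258 rather than 545 of these, and the other motif counts stayed within 1.5 times, since a shorter window holds fewer matches.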
